A study of Mus musculus with 14 samples.

Results

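The neuronal tubulins and microtubule-associated proteins described here are 10 genes, taken as the rows of the count table whose symbol is Tubb3, Tuba1a, Tubb2a, Tubb2b, Tubb5, Dcx, Dclk1, Mapt, Map2 or Map1b. All 10 were found, each in 1 row, among 17927 genes. RNA-SEQ was performed on whole mouse brains at postnatal day 2 (P2), 7 WT and 7 KO for Capn15, from untreated animals of lines made with C57BL/6J mice. The methods describe a Capn15(lacZ-Neo) line and a floxed line, and neither they nor the labels name a Cre driver for these brains. The labels give neurons as the cell type, but the tissue is brain, and markers of microglia, endothelium and the oligodendrocyte lineage were counted in every library. In the column names a letter F or M was read as sex, with 2 female and 5 male WT brains and 4 female and 3 male KO brains. A letter A to F was read as litter, since the methods give 6 litters, but the names do not call it that. Litter B gave 4 brains and each other litter gave 2, and the KO and WT libraries of the same replicate number shared a litter.

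Microtubules are hollow polymers of α- and β-tubulin that give axons and dendrites their shape and carry their transport. Vertebrates hold several genes for each subunit (isotypes), whose proteins differ mostly in an acidic tail at the carboxyl end, where modifying enzymes, motors and associated proteins act. Microtubule-associated proteins bind the polymer and stabilise, bundle or space it, and in the newborn brain they are abundant in neurons that migrate and extend processes.

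The last 60 coding bases of the β-tubulin members are shown because they encode these tails and because near-identical isotypes share reads. They were taken from GENCODE M21 transcripts on GRCm38 and are printed 5′ to 3′ on the coding strand, without the stop codon, with the glutamate codons in capitals. Tubb3 is at chr8:123421620-123421679 on the plus strand. Tubb2a at chr13:34074471-34074530, Tubb2b at chr13:34127474-34127533 and Tubb5 at chr17:35834985-35835044 are on the minus strand.
Tubb3: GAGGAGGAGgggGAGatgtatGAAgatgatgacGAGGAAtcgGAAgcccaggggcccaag
Tubb2a: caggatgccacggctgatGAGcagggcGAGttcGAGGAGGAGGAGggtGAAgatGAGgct
Tubb2b: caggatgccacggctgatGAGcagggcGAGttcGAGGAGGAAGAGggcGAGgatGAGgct
Tubb5: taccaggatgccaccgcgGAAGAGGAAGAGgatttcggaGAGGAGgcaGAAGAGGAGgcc
Tubb2a and Tubb2b differed in 3 of these 60 bases. Over the whole coding sequence Tubb2a and Tubb2b were identical in 96.5% of bases and in 443 of 445 residues. Tubb3 was identical to Tubb2a, Tubb2b and Tubb5 in 90.7%, 90.9% and 91.6% of residues.

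The associated proteins are encoded by long genes: Dcx at chrX:143855842-143933311 and Map1b at chr13:99421446-99516540 on the minus strand, and Dclk1 at chr3:55242364-55539068, Mapt at chr11:104231390-104332090 and Map2 at chr1:66175273-66442583 on the plus strand (GENCODE M21, GRCm38).

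These similarities bear on what a count can be assigned to. Of the 100-base windows of Tuba1a, 65.8% also occurred in another gene, most often Tuba1c, AC157548.1, Gm17383 or Gm49450, and its exons share 26.2% of their bases with Gm49450 on the same strand. For Tubb2a the share was 36.9% and for Tubb2b 27.7%, nearly all of it with each other. The other 7 members had no shared window of this length. Counts of Tuba1a, Tubb2a and Tubb2b are therefore less certain, since reads that fit several genes could be split or dropped by the counting.

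Library totals lay between 37620954 and 70910163 counts, so that counting error was small beside the spread between brains. The members held 2.57% ± 0.0683 of all counts in WT and 2.59% ± 0.0580 in KO (SD, n = 7 each). Levels are CPM, counts scaled to 1000000 per library with edgeR's TMM factors. The targeted gene, Capn15, an intracellular protease, was at 18.7, 26.2 and 27.3 CPM (lowest, median, highest) in the WT brains and at 12.2, 13.9 and 20.2 in the KO brains. Replicate 7 went against its labels: the library labelled WT was at 18.7 CPM and the library labelled KO at 20.2 CPM, both from litter F. With all libraries the log2 fold change of Capn15 was -0.81 ± 0.12 (SE), and the quasi-likelihood test of edgeR, adjusted by Benjamini-Hochberg over all genes (FDR), gave 0.0747. Without replicate 7 these values were -0.98 ± 0.057 and 1.58e-06. The members are given with and without this pair.

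Per length, Tuba1a, the main α isotype of young neurons, had the highest level, with 2991 ± 96.4 CPM per kilobase of merged exons (SD, n = 14). Of the β isotypes, Tubb3, which marks neurons, was at 1364 ± 38.3, Tubb2b, needed in migrating neurons, at 1286 ± 65.8, Tubb5, used by dividing cells as well as neurons, at 1005 ± 54.9, and Tubb2a at 892 ± 42.2 CPM per kilobase. Of the associated proteins, Mapt (tau, mostly axonal) was at 269 ± 7.13, Map1b (an early protein of growing axons) at 257 ± 17.8, Map2 (mostly dendritic) at 140 ± 5.41, Dclk1 (a kinase with doublecortin domains) at 64.1 ± 2.63 and Dcx (doublecortin, of newborn and migrating neurons) at 58.3 ± 7.57 CPM per kilobase. The ranges of 4 neighbouring pairs in this order overlapped: Tubb3 was above Tubb2b in 13 of 14 libraries, Tubb5 above Tubb2a in 13, Mapt above Map1b in 10 and Dclk1 above Dcx in 10. The other neighbours were apart in every library. Divided by the longest transcript instead, Map2 was at 367 and Map1b at 345 CPM per kilobase, which exchanged those 2 places. Tubb2b was then above Tubb3 in some but not all libraries, as in WT replicate 2 at 1417 and 1352. The ranges of Tubb2b and Tubb5 then overlapped, with Tubb2b down to 1243 in KO replicate 7 and Tubb5 up to 1402 in KO replicate 2. The places of Tuba1a, Tubb2a and Tubb2b also hold the uncertainty of their shared windows.

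**Figure D1:**
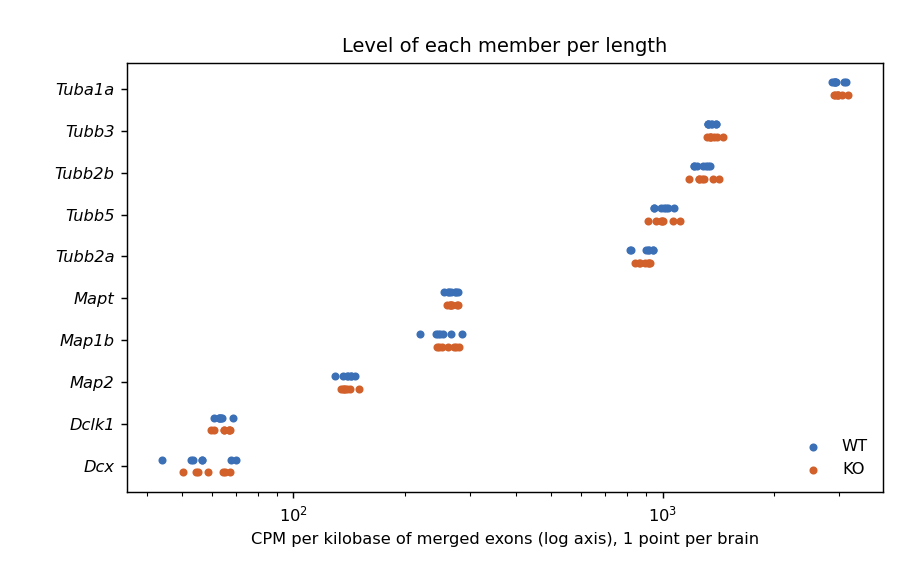
The level of each member in CPM per kilobase of merged exons (horizontal log axis), 1 point per brain, with WT in blue and KO in orange. The 5 tubulins sit between 814 and 3188 CPM per kilobase and the 5 associated proteins between 44.0 and 287.

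Among the 7 β-tubulin genes measured, RNA per kilobase was made up of 28.8% ± 0.189 Tubb3, 27.2% ± 0.824 Tubb2b, 21.3% ± 0.791 Tubb5 and 19.0% ± 1.16 Tubb2a in WT (SD, n = 7). The KO shares were 29.0% ± 0.477, 27.3% ± 0.927, 21.3% ± 0.729 and 18.8% ± 0.939. Tubb4b held 2.80% ± 0.299 in WT and 2.74% ± 0.242 in KO, Tubb4a held 0.757% ± 0.0892 and 0.808% ± 0.0760, and Tubb6 held 0.0862% ± 0.0236 and 0.0813% ± 0.0232. Each of these differences was smaller than the SD within a genotype. Of the 100-base windows, 36.9% of Tubb2a and 27.7% of Tubb2b were shared with another gene, and none of Tubb3 or Tubb5. If reads that fit several genes were dropped, the shares of Tubb2a and Tubb2b would be too low beside those of Tubb3 and Tubb5. The size of this effect was not tested, so the order of these isotypes is not settled. The shares also depend on the length used. By the longest transcript Tubb2b was at 1352 and Tubb5 at 1263 CPM per kilobase, nearer to Tubb3 at 1364.

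In the comparison of KO with WT, which asks whether loss of Capn15 changed these RNAs in the newborn brain, none of the 10 members passed an FDR of 0.05. Across all genes 0.00558% (1 gene) passed that test, in which litter and sex were covariates. That gene was not Capn15, whose FDR was 0.0747, so the test did not call the targeted gene either. No member passed by DESeq2 or limma-voom either, where 22 and 1 of all genes did. At an unadjusted p under 0.05, 2 members of 10 were counted, Dcx and Map1b, both with higher values in KO, against 5.14% of all genes and 2.88% in the higher direction. The log2 fold change was above 0 for 9 of 10 members, against 51.4% of all genes, and its median was 0.012 for the members and 0.0015 for all genes. The 10 members are not independent of each other, since they were counted in the same libraries and several pairs were correlated across brains, in both directions.

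Among the tubulins, Tubb3 was at 2478, 2525 and 2606 CPM (lowest, median, highest) in WT and at 2473, 2535 and 2728 CPM in KO. The groups overlapped, with KO replicates 2 and 5, at 2728 and 2616 CPM, above every WT brain. The log2 fold change was 0.012 ± 0.027 (SE), with a 95% interval of -0.046 to 0.071 and an unadjusted p of 0.656 in the edgeR fit. Tuba1a was at 5197, 5276 and 5675 CPM in WT and at 5269, 5371 and 5747 CPM in KO, with a log2 fold change of 0.0074 ± 0.028 and an interval of -0.053 to 0.068. Tubb2b was at 2791, 2952 and 3092 CPM in WT and at 2712, 2941 and 3264 CPM in KO, with 0.012 ± 0.027 and an interval of -0.045 to 0.069. In both of these genes the highest single value was in KO, and the groups overlapped. Tubb2a was at 1311, 1469 and 1521 CPM in WT and at 1358, 1447 and 1485 CPM in KO, so that all KO values lay inside the WT range. Its log2 fold change, the only one below 0, was -0.010 ± 0.029 with an interval of -0.073 to 0.052. Tubb5 was at 3148, 3367 and 3575 CPM in WT and at 3046, 3316 and 3715 CPM in KO, with 0.0041 ± 0.027 and an interval of -0.054 to 0.063. Without replicate 7 the log2 fold changes were 0.012 for Tubb3, 0.0068 for Tuba1a, 0.022 for Tubb2b, -0.0056 for Tubb2a and 0.014 for Tubb5, with SEs of 0.030 to 0.033. For each tubulin the interval over all 14 libraries left room for a difference in either direction of no more than 0.073 on the log2 scale.

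Of the doublecortin family, Dcx was the most variable member, at 556, 713 and 882 CPM in WT and at 634, 743 and 849 CPM in KO. Every KO value lay inside the WT range, and the KO brain was higher in 5 of 7 pairs of the same replicate number. Its log2 fold change from the fit was 0.081 ± 0.030 (SE), with an interval of 0.016 to 0.146, an unadjusted p of 0.0186 and an edgeR FDR of 0.857. Without both libraries of replicate 7 it was 0.061, with an unadjusted p of 0.0745. With litter but not sex as a covariate it was 0.060, with an unadjusted p of 0.0992. An exact permutation test of the 14 log2 CPM values (two-sided) gave p = 0.582, and an exact sign-flip test of the 7 pairs gave p = 0.250. Unlike the fit, the permutation test took no account of litter or sex, so its spread holds the litter differences. The sign-flip test took no account of sex, which differed in 6 of the 7 pairs. Dclk1 was at 930, 970 and 1050 CPM in WT and at 917, 994 and 1030 CPM in KO, with overlapping groups, a log2 fold change of 0.032 ± 0.022 and an interval of -0.015 to 0.078, and without replicate 7 it was at 0.029 ± 0.025.

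Of the other associated proteins, Map1b was at 3492, 3952 and 4550 CPM in WT and at 3885, 4161 and 4441 CPM in KO. All KO values again lay inside the WT range, and 4 of 7 pairs were higher in KO. The log2 fold change was 0.082 ± 0.026, with an interval of 0.027 to 0.138, an unadjusted p of 0.00663 and an edgeR FDR of 0.720. Without both libraries of replicate 7 it was 0.069 with an unadjusted p of 0.0287, and without sex as a covariate 0.057 with an unadjusted p of 0.154. The exact permutation test gave p = 0.306 and the exact sign-flip test p = 0.219, with the same limits as for Dcx. Mapt was at 1932, 2019 and 2107 CPM in WT and at 1968, 2012 and 2099 CPM in KO, and its log2 fold change of 0.0044 ± 0.020 had an interval of -0.038 to 0.047. Map2 was at 2127, 2306 and 2422 CPM in WT and at 2208, 2268 and 2482 CPM in KO, with 0.024 ± 0.027 and an interval of -0.035 to 0.083. Without replicate 7 Mapt was at 0.00030 ± 0.023 and Map2 at 0.027 ± 0.031. In these bulk samples fewer cells of a type and less RNA per cell cannot be told apart.

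**Figure D2:**
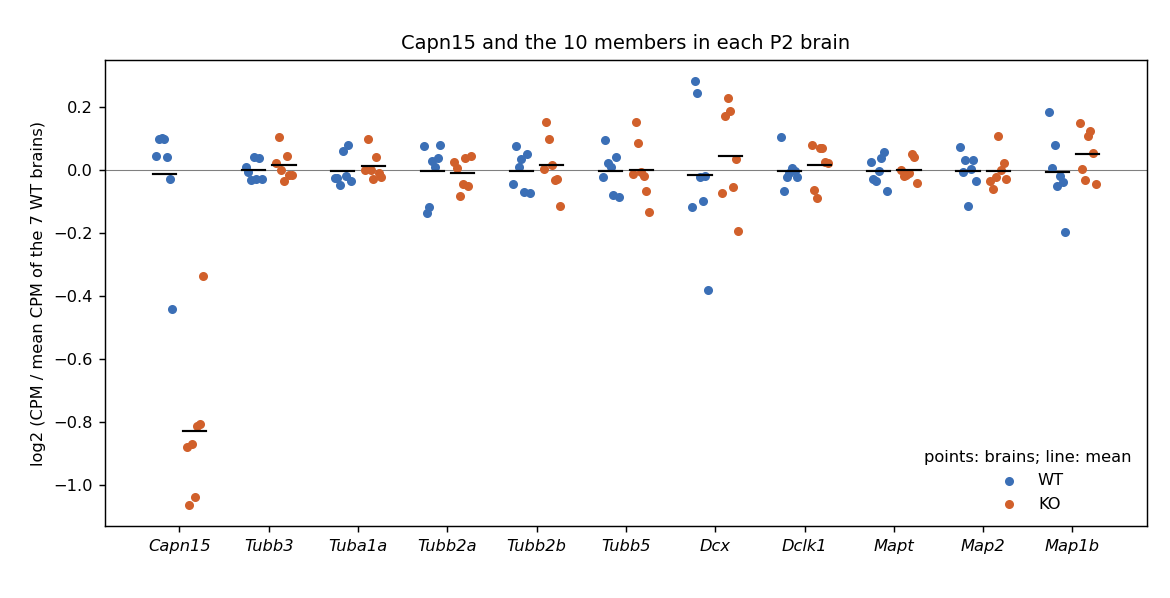
log2 of CPM over the mean CPM of the 7 WT brains (vertical axis) for Capn15 and each member, 1 point per brain in the order of replicates, with the mean of each genotype as a line. WT and KO points of every member overlap, and the points of Capn15 replicate 7 lie near each other at 18.7 CPM in WT and 20.2 CPM in KO.

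**Figure D3:**
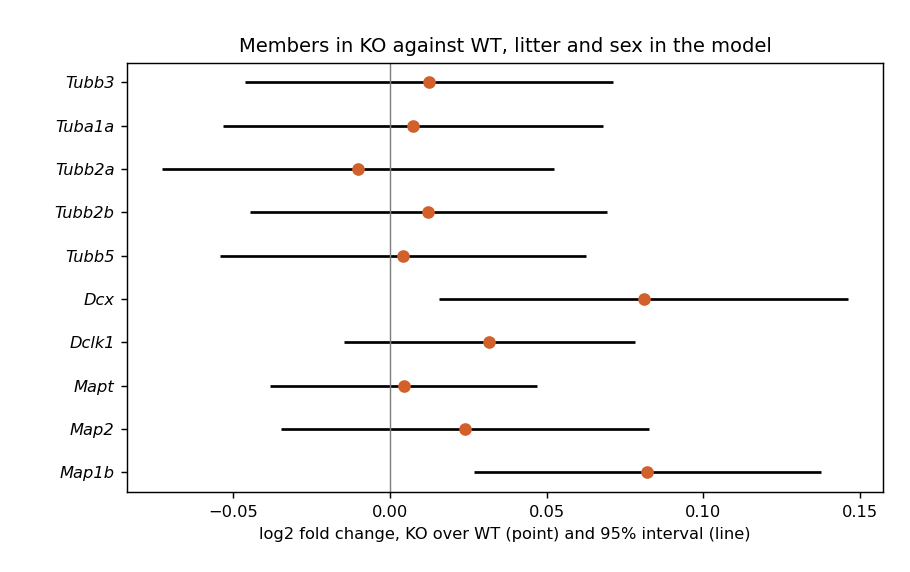
log2 fold change of each member in KO over WT (points, horizontal axis) with its 95% interval (lines), from the model with litter and sex. The intervals of Dcx (0.016 to 0.146) and Map1b (0.027 to 0.138) lie above 0 before adjustment for the number of genes, and the other 8 include 0.

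The 2 members with the lowest p, Dcx and Map1b, have 12647 and 15846 merged exon bases, and among the 873 genes of at least 12000 bases and at least 1 CPM, 72.9% had a log2 fold change above 0 and 14.8% an unadjusted p under 0.05, with a median of 0.026. In the shortest of 4 equal classes by exon length these shares were 47.1% and 3.94%. The other long members, Dclk1 and Map2, with 15296 and 16449 bases, had log2 fold changes of 0.032 and 0.024. The part of exon length in these values was not tested. Of 6 newborn neuron markers, 0 had an unadjusted p under 0.05 between genotypes, their summed level ranged from 797 to 1553 CPM in WT and from 771 to 1459 CPM in KO, and none was at 0 in any library. Of 6 choroid plexus markers 5 had an unadjusted p under 0.05, all lower in KO, with summed levels of 738 to 976 CPM in WT and 605 to 847 CPM in KO, and of 6 meninges markers 3 did, also lower in KO (220 to 344 and 246 to 309 CPM). The count was 1 of 6 for neurons (lower), microglia (higher) and endothelium (higher), and 0 of 6 for dividing cells, radial glia and astrocytes, the oligodendrocyte lineage and red blood cells. The part of these cell types was not tested either.

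Ratios within a library do not depend on its scaling. They are ratios of counts, not divided by exon length, so their sign does not give the order of levels per kilobase. The mean log2 ratio of Tubb2a to Tubb2b was -1.03 ± 0.13 in WT and -1.05 ± 0.12 in KO, and that of Dcx to Dclk1 was -0.44 ± 0.25 and -0.40 ± 0.20 (SD, n = 7). For Tubb3 to Tubb5 it was -0.40 ± 0.060 and -0.38 ± 0.071, and for Mapt to Map2 it was -0.18 ± 0.061 and -0.18 ± 0.058. Exact permutation tests (two-sided) of the 4 ratios gave p between 0.695 and 0.934, with an adjusted p over the 4 of 0.934 for each. These tests too took no account of litter or sex.

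By sex, with litter and genotype as covariates, no member passed an FDR of 0.05, where 0.0669% of all genes did. Dcx, which is X-linked, Map2 and Map1b had an unadjusted p under 0.05, all with lower values in females, against 2.63% of all genes in that direction. The log2 difference, female minus male, was -0.087 ± 0.028 (SE) for Map1b, -0.082 ± 0.030 for Map2 and -0.074 ± 0.033 for Dcx. Their unadjusted p-values from edgeR were 0.00758, 0.0148 and 0.0404, and each had an FDR of 0.927. For Dcx the unadjusted p lay between 0.0505 and 0.0645 under the other settings tried. The means without a model were 4059 ± 213 CPM in 6 female and 4095 ± 338 CPM in 8 male brains for Map1b, and 2249 ± 75.2 and 2338 ± 82.1 CPM for Map2. For Dcx they were 748 ± 70.2 CPM in females and 730 ± 115 CPM in males, the opposite order to the modelled difference. In 6 of 7 pairs the KO and WT brain were of opposite sex, so that the estimates for genotype and sex depend on each other.

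The effect of genotype did not pass an FDR of 0.05 for a difference between the sexes in any member, and none had an unadjusted p under 0.05, against 6.85% of all genes. The lowest unadjusted p was that of Dcx, 0.127, with a log2 difference of -0.26 ± 0.16 (SE). Only replicate 7 joins brains of the same sex, so this term rests on that pair and could not be fitted without it.

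The litters were compared as well, by a test chosen after the values had been seen. In the same quasi-likelihood fit, 29.6% of all genes differed between the 6 litters at an FDR of 0.05, and so did 4 of 10 members: Dcx, Map1b, Tubb5 and Dclk1. Dcx had the smallest adjusted p of the members, 5.73e-05.

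Dcx was at 882 and 858 CPM in the WT brains of litter B and at 817 and 849 CPM in its KO brains, with a mean of 852 CPM. In litter F it was at 556 CPM in WT and 634 CPM in KO, with a mean of 595 CPM. The means of litters A, C, D and E were 679, 770, 687 and 729 CPM, and the mean of litter B was 1.43 times that of litter F. Every brain of litter B was above every brain of litters A, D, E and F.

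Map1b had its highest mean, 4495 CPM, in litter A and its lowest, 3689 CPM, in litter F, a fold of 1.22 (FDR 0.00357). Tubb5 was at 3559 CPM in litter B and 3097 CPM in litter F, a fold of 1.15 (FDR 0.0302). Dclk1 was at 1040 CPM in litter A and 936 CPM in litter B, a fold of 1.11 (FDR 0.0318), and did not pass with the likelihood ratio test (0.0659) or with library totals alone (0.0542). Tubb2b followed the order of Tubb5 at the ends, with 3113 CPM in litter B and 2751 CPM in litter F, and had an FDR of 0.0506, which was 0.0321 with library totals alone. Tubb2a lay the other way, at 1361 CPM in litter B and 1503 CPM in litter F, with an FDR of 0.115. Tubb3 and Tuba1a were the steadiest tubulins, with 1.03-fold and 1.05-fold between the highest and lowest litter and FDRs of 0.988 and 0.923. Mapt (FDR 0.138) and Map2 (FDR 0.579) did not pass either. Without litter B, Dcx and Map1b of the 10 members still passed and Tubb5 (0.355) and Dclk1 (0.493) did not, while 196 genes passed in all. Without litter F, Map1b (0.0576) and Tubb5 (0.0971) did not pass, while 4936 genes of 17927 did, beside 5301 with all litters.

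Of the newborn neuron markers Sox11, Sox4, Neurod1, Nhlh1, Igfbpl1 and Eomes, 4 of 6 passed an FDR of 0.05 between litters, where 29.6% of all genes did. The summed level of all 6 was 1401 CPM in litter B, 1109 in C, 1094 in E, 881 in D, 816 in A and 787 in F. This was the same order of litters as that of Dcx. A sum can be led by its most expressed genes, and the litter values of single markers are not given here. The 6 oligodendrocyte lineage markers, all of which passed, lay in sum in the reverse order at the ends, with 334 CPM in litter B and 543 CPM in litter F. Other lists were also lower in litter B than in litter F: neurons (5 of 6 passed, 1648 and 1949 CPM), radial glia and astrocytes (5 of 6, 1410 and 1774 CPM) and dividing cells (6 of 6, 184 and 245 CPM). Choroid plexus (5 of 6), microglia (3 of 6), endothelium (3 of 6) and meninges markers (2 of 6) had members that passed too. Red blood cell markers, also 6 of 6, ranged in sum from 33.5 CPM in litter D to 247 CPM in litter B. The part of these cell types in the litter differences of the members was not tested.

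**Figure D4:**
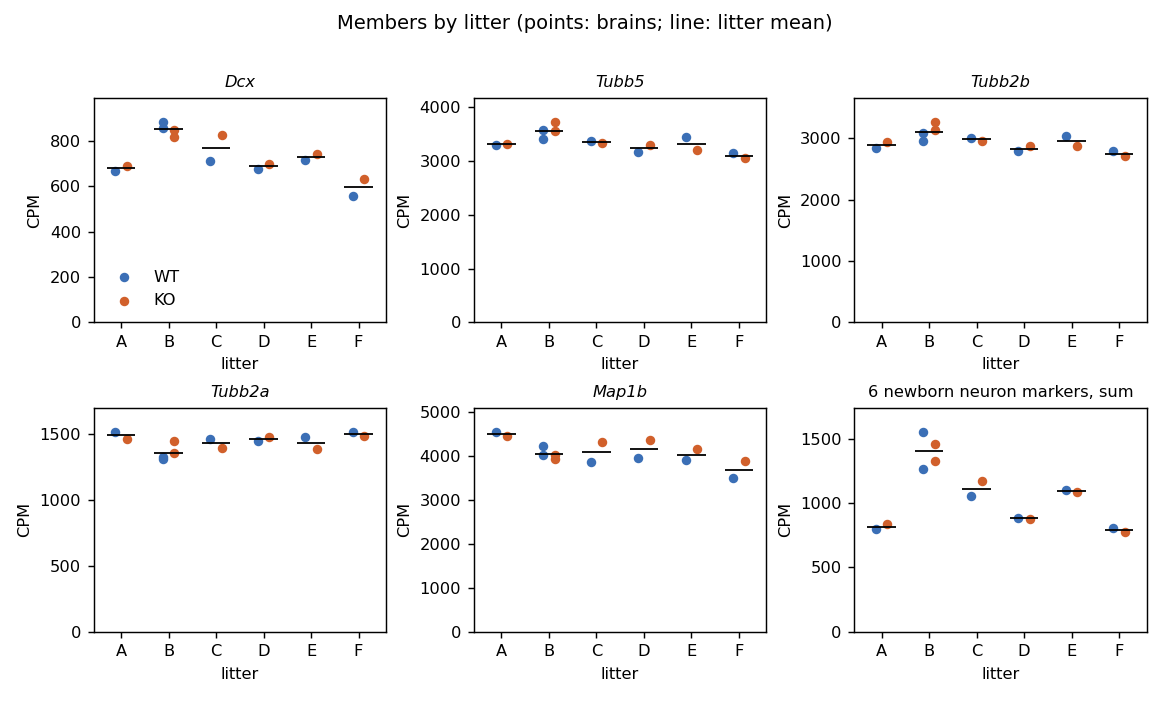
CPM (vertical axes, from 0) of 5 members and of the summed newborn neuron markers by litter, 1 point per brain in blue (WT) or orange (KO), with the litter mean as a line. Dcx and the markers are highest in litter B (852 and 1401 CPM) and lowest in litter F (595 and 787 CPM).

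Over the 14 brains, 5 of 45 member pairs were correlated at an adjusted p under 0.05 (100000 permutations, Benjamini-Hochberg over the 45). The α and β isotypes Tuba1a and Tubb3 varied together, with a Pearson r of 0.91 and a Spearman rho of 0.85 (adjusted p of 0.000225 and 0.00300 by permutation). Tubb2b and Tubb5 did so more closely, with r = 0.97 and rho = 0.97 (adjusted p of 0.000225 for each by permutation). Dcx varied with both of these, with r = 0.74 and rho = 0.81 for Tubb2b (adjusted p of 0.0205 and 0.00639) and r = 0.75 and rho = 0.82 for Tubb5 (adjusted p of 0.0188 and 0.00639), again by permutation. It varied against Tubb2a, with r = -0.87 and rho = -0.91 (adjusted p of 0.000900 and 0.000225 by permutation). Without the 2 libraries farthest from the median of the first gene, r was 0.85, 0.95, 0.75, 0.76 and -0.81 for these pairs in turn.

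These values hold the litters, which are batches of the animals. Once litter, sex and genotype were fitted and removed, which leaves 6 residual degrees of freedom, Tubb3 and Tuba1a had r = 0.98, Tubb2b and Tubb5 0.99 and Tubb2a and Dcx -0.83. For Tubb2b and Dcx the sign turned, to -0.65, and for Tubb5 and Dcx to -0.68. Dcx was thus positive with Tubb2b and Tubb5 over all brains, and negative with both beside the fitted values. All 10 pairs of tubulins were then positive, between 0.76 and 0.99, including Tubb2a and Tubb2b, whose r over all brains was -0.46. All 5 tubulins were negative with Dcx (-0.83 to -0.65), Dclk1 (-0.75 to -0.29), Map2 (-0.73 to -0.41) and Map1b (-0.85 to -0.39), and positive with Mapt (0.32 to 0.58).

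With litter, sex and genotype removed, the members fell into the short tubulin transcripts, with 1610 to 3327 merged exon bases, and Mapt on one side, and the 4 members of over 12000 bases on the other. Across all genes of at least 1 CPM, as a description in which genes share these 14 libraries, the residual correlation with Tubb3 was negative for 35.6% of the shortest of 4 equal length classes and for 81.6% of the 873 genes of at least 12000 bases. With Map1b it was negative for 59.9% and 23.3% of these classes. The part of exon length in the correlations was not tested.

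**Figure D5:**
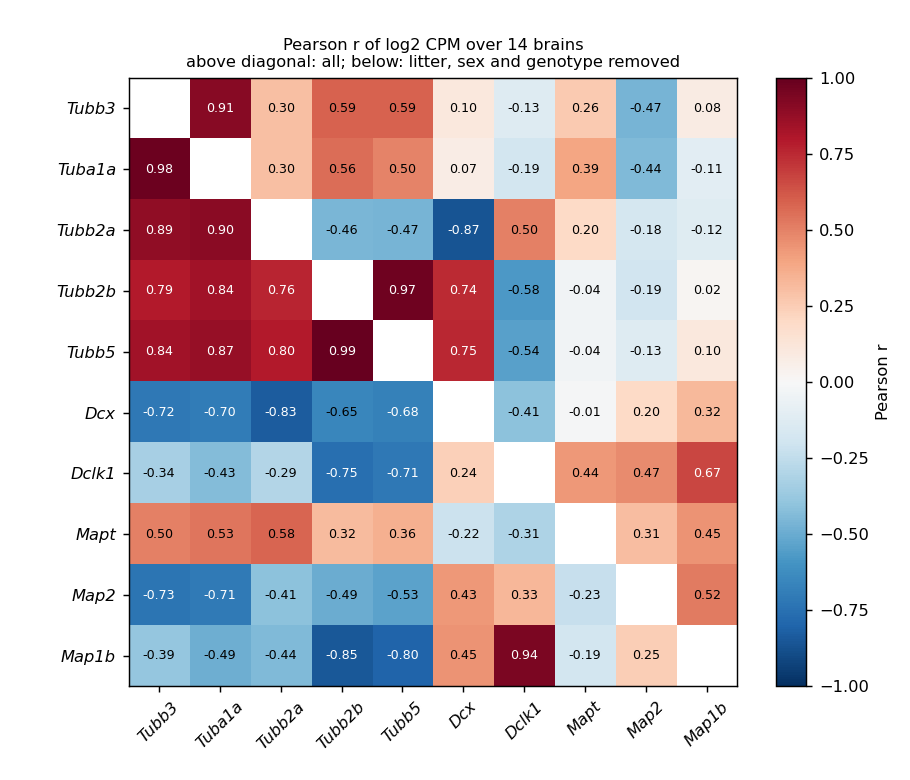
Pearson r of log2 CPM for each pair of members over the 14 brains, above the diagonal as measured and below it with litter, sex and genotype removed, on a colour scale from -1 to 1. Below the diagonal the 10 tubulin pairs lie between 0.76 and 0.99, and the tubulins with Dcx between -0.83 and -0.65.

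Among 15227 genes with a mean of at least 1 CPM, those most like Tubb3 over the 14 brains were Fscn1 (r = 0.92), Tuba1a (0.91), Dnpep (0.88), Ptms (0.87) and Dcakd (0.84). Those most like Dcx were Onecut2 (0.98), Bach2 (0.98), Ttc28 (0.97), 4833420G17Rik (0.97) and Eif4ebp2 (0.97), which were nearer to it than any other member was. Litter, sex and genotype were not removed from these correlations, and Dcx differed between litters.

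Of 107 other genes of the microtubule system, in 8 lists, 101 were in the table. None passed an FDR of 0.05 between KO and WT in edgeR's quasi-likelihood test, 8 had an unadjusted p under 0.05 (7.92%, beside 5.14% of all genes), and the median log2 fold change was 0.0085, beside 0.0015 for all genes. The 18 end-binding proteins, which hold or track microtubule ends, all had a log2 fold change above 0 (median 0.034), beside 51.4% of all genes. Of the list 13 lie in the longest of the 4 length classes, where 60.6% of genes were above 0, and 7 have at least 12000 bases, where 72.9% were. Above 0 were 17, 17, 15 and 17 of the 18 with RLE size factors, with library totals alone, without sex as a covariate and without replicate 7. In 3 end-binding proteins the unadjusted p was under 0.05: Nav1 with 0.20 ± 0.068, Nav2 with 0.22 ± 0.079 and Camsap3, a minus-end protein, with 0.084 ± 0.032 (FDRs of 0.765, 0.812 and 0.869). Nav1 and Nav2 have 17303 and 32228 merged exon bases, and the part of exon length was not tested. The highest of the list per length were Clip2 and Dctn1, at 48.9 and 45.7 CPM per kilobase.

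Of 15 motors, the unadjusted p was under 0.05 for Dync1h1, the heavy chain of cytoplasmic dynein (15658 merged exon bases), with 0.11 ± 0.027 (FDR 0.466), Kif21b (12184 bases) with 0.079 ± 0.027 (FDR 0.784) and Kif11, a mitotic kinesin, with -0.074 ± 0.034 (FDR 0.969). Kif5c and Kif1a, carriers of axonal cargo, were the highest motors at 156 and 119 CPM per kilobase. Of 9 kinases, Gsk3b, which phosphorylates tau and Map1b, had 0.058 ± 0.025 (FDR 0.954), and Cdk5r1 and Cdk5, which form an active pair, were highest at 124 and 43.1 CPM per kilobase. Of 6 folding cofactors, Tbcc had -0.14 ± 0.057 (FDR 0.911), and Tbca and Tbcb were highest at 86.4 and 84.2 CPM per kilobase.

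In the remaining lists no gene had an unadjusted p under 0.05. These were 11 other tubulin isotypes (median log2 fold change -0.029, with Tuba1b and Tubb4b highest at 199 and 131 CPM per kilobase) and 14 other structural associated proteins (0.026, Map9 and Map7d1 at 47.5 and 33.2). The 13 destabilisers and severing enzymes had a median of 0.0043, with the tubulin-binding stathmins Stmn1 and Stmn3 highest at 513 and 464 CPM per kilobase, above every associated protein among the 10 members. The 15 tubulin-modifying enzymes had a median of -0.0013, with Svbp and Vash1, partners in removing the last tyrosine of α-tubulin, highest at 32.1 and 29.0.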

How the data were processed

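Whole P2 brains of 7 WT and 7 KO mice were sequenced after depletion of ribosomal RNA. The authors aligned reads to GRCm38 with STAR 2.7.8 and deposited raw counts per gene, without normalization, for 17927 genes filtered by a rule not given in the sources used here. The methods name HTSeq-count 0.11.1, a ScriptSeq kit and a HiSeq, whereas the labels name featureCounts, a stranded TruSeq kit and a NovaSeq, and no read length or strand setting was found. Genotype and replicate came from the labels, and litter and sex were read from letters in the column names.

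The counts were fitted across all genes with edgeR 4.0.16 (R 4.3.3): TMM factors, litter, sex and genotype, quasi-likelihood test, and Benjamini-Hochberg over all genes (FDR). DESeq2 1.42.0 and limma 3.58.1 gave alternatives. log2 CPM used a prior count of 2. Exact permutation tests used the 3432 regroupings of 7 against 7 (smallest p 0.000583) and exact sign-flip tests 7 pairs (smallest p 0.0156), all two-sided. Python 3.11.15, numpy 2.4.6, scipy 1.17.1, pandas 2.3.3 and matplotlib 3.10.9 were used. Of the genes, 17915 were found in GENCODE M21 by identifier, which gave exons and coding sequence. Windows of 100 bases were compared between transcripts. The fit was tested on simulated data.

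Same-numbered WT and KO libraries share the column-name letter read as litter, which pairs them. Replicates 2 and 3 are both of litter B, so which WT goes with which KO there rests on the number alone. The deviations of a pair from its group means correlated between -0.47 and 0.44 over 15227 genes. No 2 libraries agreed within sampling noise (lowest chi-square per gene 4.67). The members and lists were chosen with earlier results of these data known. Named genes are the members, Capn15, genes of the lists with an unadjusted p under 0.05, the 2 highest of each list per kilobase, and the 5 genes most like Tubb3 and Dcx. Cell type markers, the other β isotypes and genes that share sequence with a member are named outside this rule, and were chosen after values were seen, except the markers, which are whole lists. The coding end of 1 tubulin member is not reported here.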

Additional observations from a re-analysis of the deposited data

Results flagged for a closer look

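In 30 groups of 7 libraries (members, Capn15 and 4 log2 ratios, by genotype), 4 held a library apart from the others by Dixon's test at 95%, where chance gives about 1 in 20. Capn15 was lowest in WT replicate 7, at 18.7 CPM, and highest in KO replicate 7, at 20.2 CPM, both of litter F. Dclk1 was highest in WT replicate 1, at 1050 CPM, above the next WT brain. The log2 ratio of Mapt to Map2 was lowest, at -0.30, in KO replicate 4, the KO brain with the highest Map2 (2482 CPM).

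The effect of genotype on Capn15 differed between the sexes by -2.16 on the log2 scale (FDR 0.0475 in edgeR's quasi-likelihood test of the interaction). This term rests on replicate 7, the only pair of the same sex.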

How the results depend on the processing

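The count of members past an FDR of 0.05 between KO and WT was 0 under each of 10 alternatives and with each library left out (0 to 0). In a litter of 2 brains, leaving out 1 leaves the other fitted by its litter term alone, so the pair in effect drops out. Tubb3 was thus at 0.041 without WT replicate 4 and again without KO replicate 4. Outside litter B these fits therefore leave out a litter rather than a single brain. The number of genes called was 34 with the likelihood ratio test, 22 with DESeq2, 0 with library totals alone, 2 without sex, 0 with the replicate block, 7 without both libraries of replicate 7 and 0 to 7 with 1 library left out. The count of members at an unadjusted p under 0.05 was 0 with genotype alone, 0 with litter and genotype, 1 without replicate 7 and 1 to 3 with 1 library left out (1 without WT replicate 4 or 7 or KO replicate 1, 4 or 7, and 3 without either library of replicate 5), and that of all genes was 576 with DESeq2, 260 with genotype alone and 670 to 1448 with 1 library left out. With the replicate block, which follows the pairing, Dcx was at 0.081 and Map1b at 0.082 (FDR 0.940), and no member's call changed.

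No member's log2 fold change turned sign outside the fits that left out 1 library. There it ranged from -0.016 to 0.041 for Tubb3, -0.021 to 0.036 for Tuba1a, -0.032 to 0.0074 for Tubb2a, -0.0042 to 0.027 for Tubb2b, -0.016 to 0.019 for Tubb5, -0.0027 to 0.0098 for Mapt and -0.021 to 0.065 for Map2, while Dcx (0.058 to 0.123), Dclk1 (0.026 to 0.037) and Map1b (0.066 to 0.093) stayed above 0. The log2 differences by sex kept their sign and their side of an FDR of 0.05 under 4 alternatives, while the unadjusted p of Dcx was above 0.05 in each. Members that differed between litters numbered 2 without litter B, 2 without litter F, 3 with the likelihood ratio test and 4 with library totals alone, alternatives chosen after seeing the data. With litter, sex and genotype removed, r turned to -0.65 for Tubb2b and Dcx, -0.68 for Tubb5 and Dcx, 0.76 for Tubb2a and Tubb2b and -0.72 for Tubb3 and Dcx. By the longest transcript the levels were 1352 (Tubb2b), 1263 (Tubb5), 385 (Mapt), 345 (Map1b), 367 (Map2), 123 (Dclk1) and 81.3 (Dcx) CPM per kilobase. The cause of these changes was not tested.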
